A study of Sus scrofa with 6 samples.

Results

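Corticosteroid signalling was followed through the glucocorticoid and mineralocorticoid receptors, the enzyme that shields the second of them, their classical induced genes and the epithelial sodium channel. The set was defined by symbol, with earlier results of these data known, and no measured value entered the rule. The symbols were NR3C1, NR3C2, HSD11B2, FKBP5, TSC22D3, KLF9, SGK1, SCNN1A, SCNN1B and SCNN1G. Pig Ensembl gene identifiers paired with 9 of these 10 symbols among the 21911 genes of the deposited table, and TSC22D3, a transcriptional regulator induced by glucocorticoids, was not analysed here. The samples were gut tissue of piglets, 3 labelled SMP and 3 labelled Control. The design text sets piglets given an alkaline metasilicate mineral water to drink against Control piglets. The gut segment, age, sex and strain of the piglets, the dose and the duration were not stated. Nothing in the labels says that each sample came from its own piglet, so p-values measure the spread between these samples, which may be technical.

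Cortisol acts in cells through the glucocorticoid receptor, which is held ready by a chaperone complex, moves to the nucleus once bound and switches on target genes. Aldosterone acts through the mineralocorticoid receptor, which also binds cortisol, and in aldosterone-sensitive epithelia HSD11B2 inactivates cortisol so that aldosterone can be sensed. In the distal colon and the kidney collecting duct this pathway raises sodium absorption through the epithelial sodium channel, built from alpha, beta and gamma subunits encoded by SCNN1A, SCNN1B and SCNN1G. The small intestine absorbs sodium mainly by sodium-proton exchange and together with sugars and amino acids.

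Expression is given in FPKM, that is fragments scaled to gene length in kilobases and to each library total in units of 1000000, so levels can be compared between genes. Library totals, recovered from the steps in the deposited values, were 16816165 to 20712701 in SMP and 15927028 to 18636198 in Control, and the read numbers below were recovered in the same way. Each log2 difference subtracts the Control mean from the SMP mean of log2(FPKM + 1), a scale that compresses changes of weakly expressed genes. The fit was made with limma over 11471 genes averaging at least 1 FPKM, with Benjamini-Hochberg adjustment at 0.05. The Y-linked gene EIF1AY was at 23.9 to 29.6 FPKM in SMP and at most 0.187 FPKM in Control, so sex and treatment cannot be told apart for any gene below. Markers of the gut segments also differed, so the segment sampled cannot be told apart from treatment either. Of 9 tested markers of the proximal small intestine 5 fell, against 2.1% of all tested genes, and 0 rose, against 3.5%. GATA4 of that list overlapped between the groups (means 27.2 FPKM in SMP and 27.4 FPKM in Control). Of 6 tested markers of the large intestine 4 rose and 1 fell, against the same shares of all tested genes. The summed proximal levels were 916 to 1420 FPKM in SMP and 8880 to 13960 FPKM in Control, mostly from S100G (means 1022 and 11311 FPKM). The summed large intestine levels were 300.2 to 318 FPKM in SMP and 467 to 574 FPKM in Control. Most of that sum came from AQP8 (means 23.3 FPKM in SMP and 153 FPKM in Control) and MS4A12 (207 and 341 FPKM). Both were lower in SMP, so the sum ran against the 4 rises. Epithelial markers were high in every library, with summed levels of 3419 to 3548 FPKM in SMP and 3166 to 4039 FPKM in Control. SMP replicate 3 (-28.9 on the second principal component) and Control replicate 2 (38.6) stood apart from the others of their groups.

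Neither receptor gene passed the test, and the glucocorticoid receptor transcript was the more abundant in every library. NR3C1 (ENSSSCG00000014401), encoding the glucocorticoid receptor, was at 5.23, 5.81 and 7.06 FPKM in SMP replicates 1, 2 and 3 and at 8.06, 7.01 and 7.25 FPKM in Control replicates 1, 2 and 3. The groups overlapped only through SMP replicate 3, which lay just above Control replicate 2. The means were 6.03 ± 0.933 FPKM in SMP and 7.44 ± 0.551 FPKM in Control (SD, n = 3 each), a log2 difference of -0.27 with a 95% interval of -0.61 to 0.08 (limma adjusted p = 0.299). In bulk tissue, fewer cells of a type and less RNA per cell cannot be told apart.

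NR3C2 (ENSSSCG00000037766), encoding the mineralocorticoid receptor, was at 1.37, 1.65 and 2.01 FPKM in SMP replicates 1, 2 and 3 and at 1.92, 1.45 and 1.63 FPKM in Control replicates 1, 2 and 3. The ranges of the groups covered each other almost completely. Means were 1.67 ± 0.322 FPKM in SMP and 1.67 ± 0.236 FPKM in Control (SD, n = 3 each), with a 95% interval of the log2 difference of -0.37 to 0.37 (limma adjusted p = 0.998). The ratio of NR3C1 to NR3C2 was 3.51 to 3.82 in SMP libraries and 4.20 to 4.83 in Control libraries.

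HSD11B2 (ENSSSCG00000002777), the dehydrogenase that turns cortisol into inactive cortisone, was at 10.5, 11.5 and 5.26 FPKM in SMP replicates 1, 2 and 3 and at 6.36, 6.71 and 5.88 FPKM in Control replicates 1, 2 and 3. The first 2 SMP libraries lay above every Control library, while SMP replicate 3 was the lowest of all 6. The means were 9.11 ± 3.37 FPKM in SMP and 6.32 ± 0.415 FPKM in Control (SD, n = 3 each), with a log2 difference of 0.40 and a 95% interval of -0.23 to 1.04 (limma adjusted p = 0.395). Without SMP replicate 3 the log2 difference was 0.72 and passed the threshold (adjusted p = 0.0305), in a fit where 9.29% of all genes passed, and the adjusted p without each single library ranged from 0.0305 to 0.728.

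FKBP5 was the member whose groups stood clear of each other. FKBP5 (ENSSSCG00000001549) encodes a co-chaperone that lowers the hormone affinity of the glucocorticoid receptor and is itself induced by it. It was at 9.78, 9.69 and 8.398 FPKM in SMP replicates 1, 2 and 3 and at 21.7, 10.5 and 16.8 FPKM in Control replicates 1, 2 and 3. All SMP values lay below all Control values, but Control replicate 2 was much nearer to SMP than to the other Control libraries. The means were 9.29 ± 0.773 FPKM in SMP and 16.3 ± 5.63 FPKM in Control (SD, n = 3 each), a log2 difference of -0.70 (SE 0.25) with a 95% interval of -1.30 to -0.10. The unadjusted p was 0.0274 and the limma adjusted p over all genes 0.141, so the difference did not pass. Without Control replicate 2 the log2 difference was -0.97 and did pass (adjusted p = 0.0289), in a fit where 9.26% of all genes passed, within a range of 0.0289 to 0.341 over the fits without each single library.

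KLF9 (ENSSSCG00000021646), a zinc finger transcription factor induced by glucocorticoids in many tissues, was at 4.88, 7.54 and 6.12 FPKM in SMP replicates 1, 2 and 3 and at 11.9, 10.3 and 6.52 FPKM in Control replicates 1, 2 and 3. The groups overlapped because Control replicate 3 lay below SMP replicate 2. The log2 difference was -0.54 (SE 0.24) with a 95% interval of -1.11 to 0.03 (limma adjusted p = 0.217).

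SGK1 (ENSSSCG00000021443) encodes the serum- and glucocorticoid-induced kinase, which phosphorylates the ubiquitin ligase NEDD4L and thereby keeps the sodium channel at the cell surface. It had the highest level of all members in every library, with 27.7, 30.8 and 36.3 FPKM in SMP replicates 1, 2 and 3 and 55.5, 20.9 and 49.3 FPKM in Control replicates 1, 2 and 3. The SMP values sat inside the wide Control range, above Control replicate 2 and below the other Control libraries. The log2 difference was -0.29 (SE 0.36) with a 95% interval of -1.14 to 0.56 (limma adjusted p = 0.653). Without Control replicate 2 the log2 difference was -0.72 (adjusted p = 0.0526), and without Control replicate 1 it was -0.03 (adjusted p = 0.967).

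**Figure D1:**
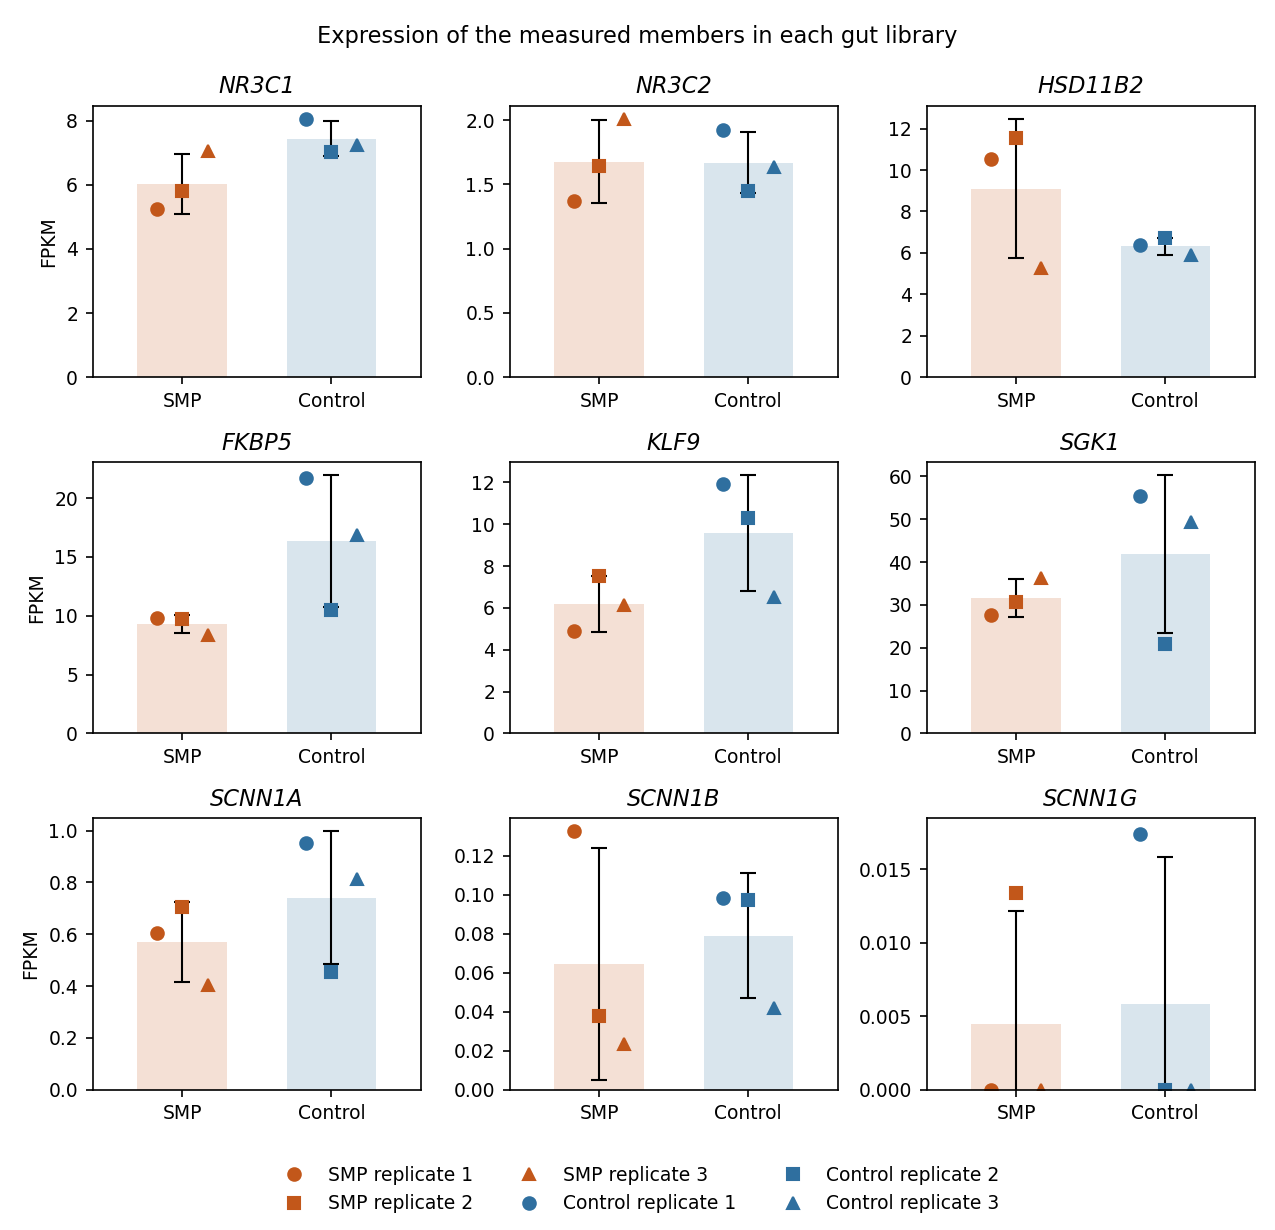
FPKM (linear axis from 0) of the 9 measured members in each library; symbols are libraries, bars are group means and error bars are SD over 3 libraries. FKBP5 shows no overlap between SMP (8.398 to 9.78 FPKM) and Control (10.5 to 21.7 FPKM), and every other member overlaps.

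Of the 6 members tested, 0 passed the threshold in limma, where 5.6% of all tested genes passed in either direction, and 0 passed with voom on the recovered reads, where 6.4% did. At an unadjusted p under 0.05, FKBP5 alone was counted by either tool, 1 of 6, against 25.8% of all tested genes in limma and 26.3% with voom. Groups that did not overlap, with SMP lower, were likewise found in 1 of 6 members, against 11.5% of all tested genes. These shares of members were close to those of the whole table or below them. The median log2 difference of the 6 members was -0.28, against 0.09 for all tested genes. Of the 6 differences 4 were below 0, against 41.1% of those of all tested genes.

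Control replicate 2 was the lowest Control library for NR3C1, NR3C2, FKBP5 and SGK1, as it was for 46.6% of all tested genes. This library also had the highest summed level of 8 smooth muscle markers, 2705 FPKM, against 970 and 162 FPKM in Control replicates 1 and 3 and 1553 to 2129 FPKM in SMP. Its summed level of 9 proximal small intestine markers was 8880 FPKM, the lowest of Control, of which S100G alone gave 8670 FPKM. The summed level of 9 leukocyte markers was 101.2, 54.9 and 78.2 FPKM in Control replicates 1, 2 and 3 and 47.4 to 65.7 FPKM in SMP. Its order among the Control libraries, replicate 1 above 3 above 2, was that of NR3C1, NR3C2, FKBP5 and SGK1. These were 4 of the 6 tested members, against 32.5% of all tested genes. Summed levels of the receptor chaperone list (860, 613 and 788 FPKM in Control replicates 1, 2 and 3) had the same order. So did the sodium pump list (541, 305 and 476 FPKM) and the list of other sodium entry genes (315, 177 and 294 FPKM), while the epithelial markers did not. Of 7 leukocyte markers tested 0 passed in limma or with voom, and 1 had an unadjusted p under 0.05. CD68, a macrophage gene and the marker with that p, was at 8.39 to 12.2 FPKM in SMP and 13.4 to 21.1 FPKM in Control (limma adjusted p = 0.0845). CD14 and CSF1R of the same list overlapped between the groups, with log2 differences of 0.11 and -0.33. Of the 7 tested leukocyte differences 6 were below 0, against 41.1% of those of all tested genes, and 1 was above. The part of tissue composition in the values of NR3C1, NR3C2, FKBP5 and SGK1 was not tested. Without both Control replicate 2 and SMP replicate 3, which left 2 libraries a group, FKBP5 and SGK1 passed as lower in SMP (log2 differences -0.91 and -0.82, adjusted p = 0.0164 and 0.0123) and HSD11B2 as higher (0.76, adjusted p = 0.0131), with 26.7% of all tested genes passing in that fit. With array weights, 4 of the 6 members passed, against 38.1% of all tested genes: HSD11B2 as higher, and SGK1, NR3C1 and FKBP5 as lower.

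The channel itself was scarcely expressed in either group. SCNN1A (ENSSSCG00000000707), the alpha subunit needed for a conducting channel, was at 0.605, 0.707 and 0.403 FPKM in SMP replicates 1, 2 and 3, from 46, 54 and 25 reads. In Control replicates 1, 2 and 3 it was at 0.953, 0.454 and 0.815 FPKM, from 56, 27 and 56 reads. The groups overlapped, with the highest values in Control replicates 1 and 3.

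SCNN1B (ENSSSCG00000028923), the beta subunit, had 7, 2 and 1 reads in SMP replicates 1, 2 and 3 and 4, 4 and 2 reads in Control replicates 1, 2 and 3, at 0.0233 to 0.133 FPKM in SMP and 0.042 to 0.0982 FPKM in Control. SCNN1G (ENSSSCG00000007836), the gamma subunit, had 1 read in SMP replicate 2 and 1 read in Control replicate 1, and was listed at 0 in the other libraries. For SCNN1G the limit that a count of 0 allows, 3 reads, was 0.0401 to 0.0494 FPKM in SMP libraries and 0.0446 to 0.0522 FPKM in Control libraries, for counting error only. All 3 subunits averaged under 1 FPKM and were therefore not tested, and no difference in SCNN1B or SCNN1G was detectable at this depth.

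Of 6 genes of other sodium entry paths, SLC5A1, SLC6A19, SLC9A2 and SLC9A3 were read above every channel subunit in each library. SLC5A1, the sodium-glucose cotransporter, was at 76.0 to 202 FPKM in SMP and 71.8 to 119 FPKM in Control, and SLC6A19, a sodium-coupled amino acid transporter singled out once its values were known, at 86.8 to 138 FPKM in SMP and 86.3 to 119 FPKM in Control. SLC9A3, the main apical sodium-proton exchanger, was at 9.24, 10.01 and 19.1 FPKM in SMP replicates 1, 2 and 3 and at 49.9, 15.6 and 31.8 FPKM in Control replicates 1, 2 and 3. SMP replicate 3 lay above Control replicate 2, and the log2 difference of -1.21 (95% interval -2.25 to -0.16) did not pass (limma adjusted p = 0.147). SLC5A1, the next by p, had a log2 difference of 0.27 (adjusted p = 0.697). In this list limma called 0 of 4 tested genes, against 5.6% of all tested genes, and voom called 0, against 6.4%. At an unadjusted p under 0.05 limma counted 1 of the 4, against 25.8% of all tested genes.

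The other 2 genes of that list averaged under 1 FPKM, were not tested and are given with their values known. SLC10A2, the sodium-coupled bile acid transporter of the ileum, was at 1.17, 1.52 and 1.48 FPKM in SMP replicates 1, 2 and 3 and at 0.226, 0.187 and 0.210 FPKM in Control replicates 1, 2 and 3, with no overlap and a 6.70-fold ratio of means. SLC34A2, a sodium-phosphate cotransporter, was at 0 to 0.0467 FPKM in SMP and 0 to 0.0422 FPKM in Control, from 4 and 3 reads in all.

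**Figure D2:**
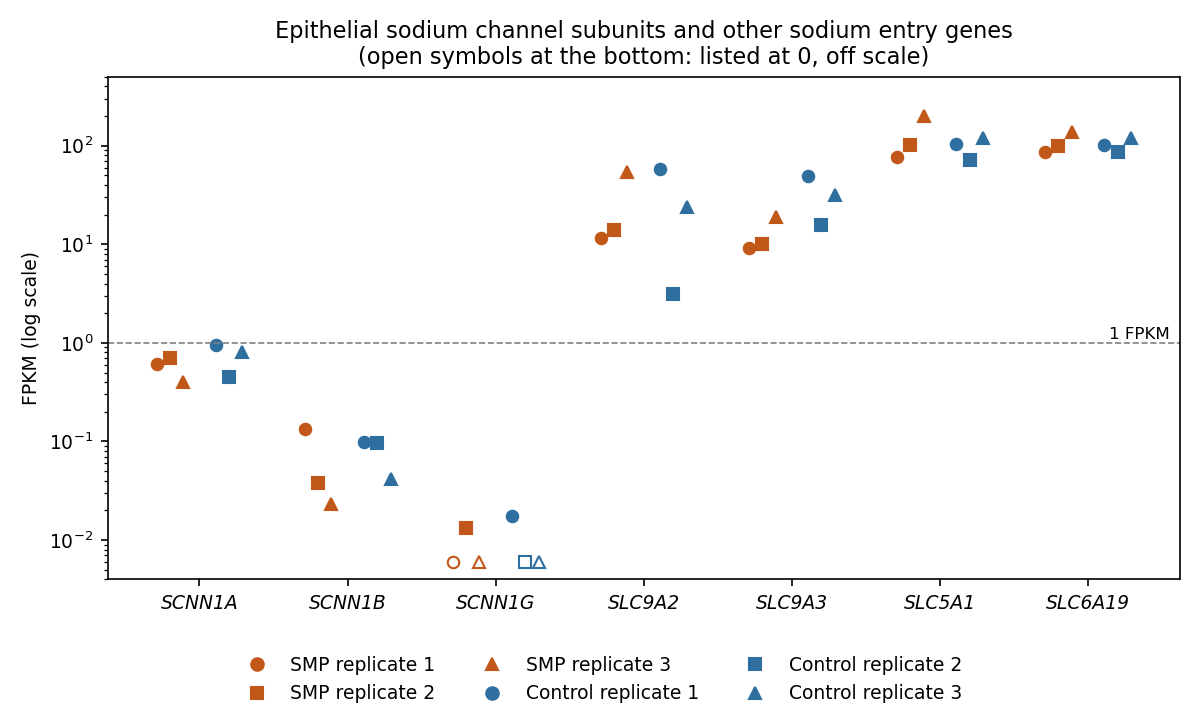
FPKM on a log axis of the 3 channel subunits and 4 other apical sodium entry genes in each library; open symbols mark values listed at 0. The channel subunits lie below 1 FPKM in all libraries, while SLC5A1 and SLC6A19 lie between 71.8 and 202 FPKM.

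Other genes commonly induced by glucocorticoids were lower in SMP where they passed. In this list, drawn up with earlier results of these data known, 4 of 23 tested genes fell (17.4%, against 2.1% of all tested genes) and 0 rose (against 3.5%), with the same counts by voom. At an unadjusted p under 0.05, 9 were lower and 0 higher in limma, against 25.8% of all tested genes in either direction. The median log2 difference was -0.37 against 0.09 for all tested genes, and 12 of the 23 had SMP values entirely below Control, against 11.5% of all tested genes, while 0 had them entirely above, against 21.1%. TAT, a liver gene classically induced by glucocorticoids and the 1 matched gene of the list too low to test, had the SMP libraries on top, with 9, 3 and 8 reads in SMP replicates 1, 2 and 3 and 0, 1 and 1 reads in Control replicates 1, 2 and 3.

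PDK4, the kinase that restrains glucose oxidation and responds to fasting as well as to glucocorticoids, was at 5.35, 5.93 and 3.79 FPKM in SMP replicates 1, 2 and 3 and at 24.7, 18.1 and 19.4 FPKM in Control replicates 1, 2 and 3. It was 4.13-fold lower in SMP (log2 difference -1.86, SE 0.19, limma adjusted p = 0.00739), with a wide gap between the groups. PCK1, which encodes the gluconeogenic enzyme phosphoenolpyruvate carboxykinase, was at 10.7, 12.04 and 8.91 FPKM in SMP and at 20.2, 65.1 and 48.5 FPKM in Control. The log2 difference was -1.84 (adjusted p = 0.0485), and its Control values spread more widely than those of PDK4.

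DDIT4, an inhibitor of mTOR signalling induced by stress and glucocorticoids, was at 36.9, 39.8 and 25.6 FPKM in SMP and at 59.0, 66.5 and 68.3 FPKM in Control. Its log2 difference of -0.92 passed (limma adjusted p = 0.0449). DUSP1, a phosphatase that switches off MAP kinases and is also an immediate early gene, was at 22.3, 23.0 and 17.2 FPKM in SMP and at 39.6, 40.7 and 33.7 FPKM in Control. It also passed as lower, with a log2 difference of -0.84 (adjusted p = 0.0370). In all 4 genes the groups were separate and SMP replicate 3 was the lowest library. Of these calls PDK4 alone was kept without each single library in turn (adjusted p 0.0105 to 0.0475), and DDIT4, PCK1 and DUSP1 lost theirs in 5, 5 and 4 of those 6 fits, each of them without Control replicate 3, SMP replicate 1 or SMP replicate 2 (adjusted p up to 0.177, 0.178 and 0.140).

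Most genes of the list that did not pass were also lower in SMP. Of all 23 tested differences, 19 were below 0, against 41.1% of those of all tested genes, and 4 were above. The clock gene PER1, named after its values were seen because it is a known direct target of the receptor in human and mouse cells, was at 10.7 to 12.9 FPKM in SMP and 16.97 to 28.9 FPKM in Control (log2 difference -0.85, limma adjusted p = 0.0621). ZBTB16, a strongly glucocorticoid-induced transcription factor likewise singled out once its values were known, was at 0.708 to 0.991 FPKM in SMP and 0.614 to 3.04 FPKM in Control, and the groups overlapped (adjusted p = 0.351). The highest difference of the list was 0.22, in the cell cycle inhibitor gene CDKN1A, named for that once its values were known.

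**Figure D3:**
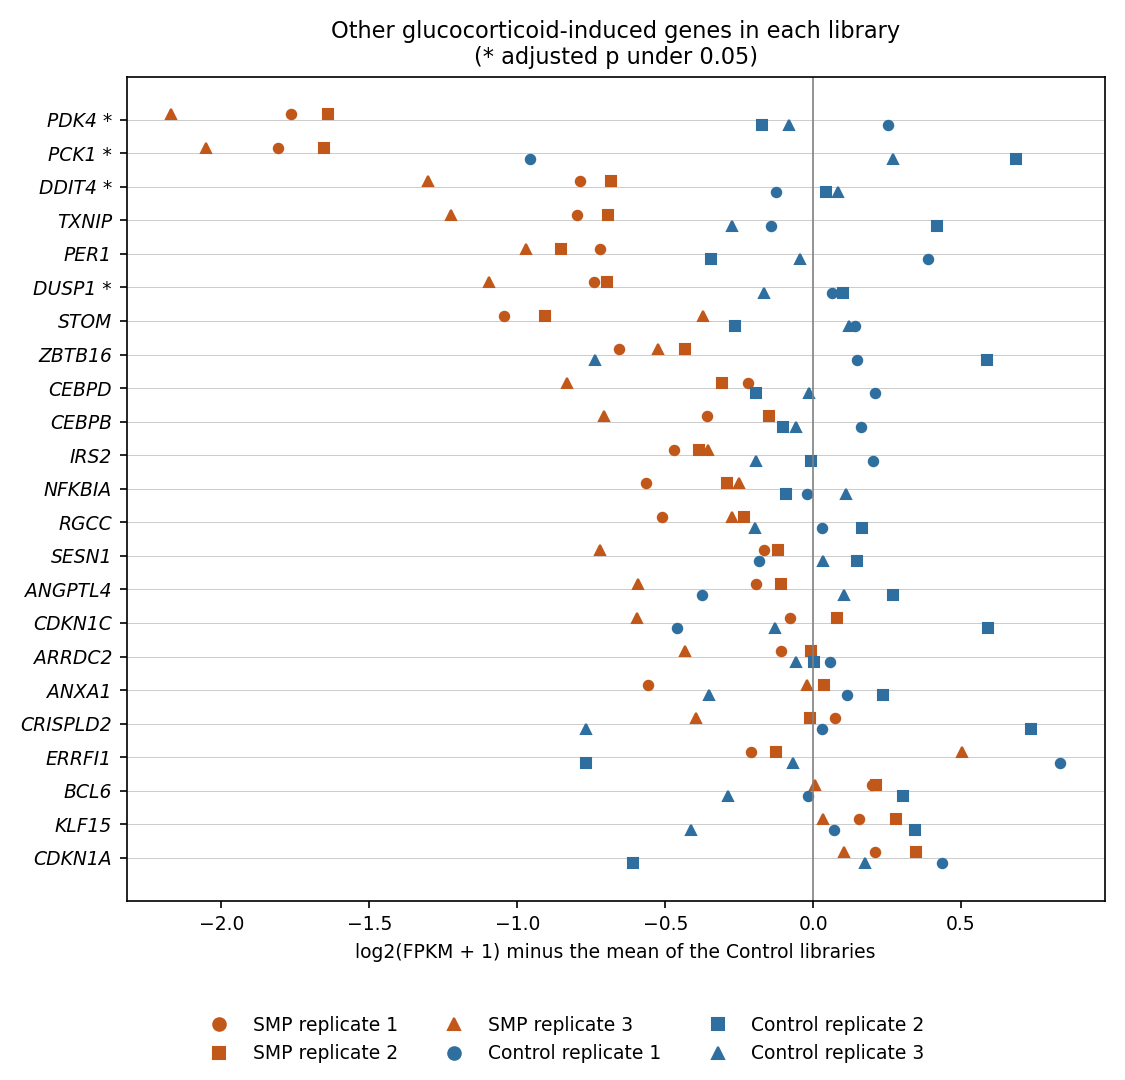
log2(FPKM + 1) of 23 other glucocorticoid-induced genes in each library, minus the mean of the Control libraries, sorted by the fitted difference; asterisks mark adjusted p under 0.05. PDK4, PCK1, DDIT4 and DUSP1 pass as lower in SMP (log2 differences of -1.86 to -0.84), and none passes as higher.

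The list of steroid handling genes, which mixes making, activation and inactivation, gave 2 rises among 5 tested genes (40%, against 3.5% of all tested genes). It gave 0 falls (1 at an unadjusted p under 0.05 in limma, the activating enzyme HSD11B1). With voom 3 of the 5 rose (H6PD, SRD5A1 and NR5A2) and 0 fell. H6PD supplies the cofactor that lets HSD11B1 regenerate cortisol, and was at 8.45, 8.07 and 8.36 FPKM in SMP replicates 1, 2 and 3 and at 4.60, 5.39 and 3.55 FPKM in Control replicates 1, 2 and 3. It rose by 0.77 on the log2 scale (limma adjusted p = 0.0414), and lost its call with either rescaling of the libraries (median-ratio, quantile). SRD5A1, a reductase that inactivates cortisol and also converts testosterone, was at 27.5, 24.2 and 17.7 FPKM in SMP and at 12.2, 9.89 and 13.1 FPKM in Control (log2 difference 0.91, adjusted p = 0.0482). Both genes had every SMP value above every Control value. Both lost their calls without the expression filter and with replicate number added to the fit. Neither kept its call without Control replicate 1, Control replicate 3, SMP replicate 1 or SMP replicate 2, nor H6PD without SMP replicate 3 and SRD5A1 without Control replicate 2 (adjusted p up to 0.166 for H6PD and 0.186 for SRD5A1).

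HSD11B1, the enzyme that turns cortisone back into cortisol and a gene singled out once its values were known, was at 7.45, 8.11 and 5.82 FPKM in SMP replicates 1, 2 and 3 and at 10.8, 9.16 and 10.3 FPKM in Control replicates 1, 2 and 3. The groups were separate with SMP lower, and the log2 difference of -0.46 did not pass (limma adjusted p = 0.125). CYP11A1, the first enzyme of steroid synthesis and likewise outside the rule for named genes, was listed at 0 in 5 libraries and at 0.0257 FPKM in SMP replicate 2.

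Several chaperones that hold the corticosteroid receptors rose in SMP. Of 12 tested chaperone and co-regulator genes 5 rose (41.7%, against 3.5% of all tested genes) and 0 fell, with the same counts by voom. The 1 gene lower at an unadjusted p under 0.05 in limma was BAG1, named with its values known. It was at 54.9 to 83.1 FPKM in SMP and 92.9 to 149 FPKM in Control, without overlap (log2 difference -0.93, limma adjusted p = 0.0751). The median log2 difference was 0.44, against 0.09 for all tested genes, and 6 of the 12 had SMP values entirely above Control, against 21.1% of all tested genes. These chaperones serve many other client proteins.

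HSP90AA1, the inducible cytosolic HSP90, was at 688, 642 and 370.2 FPKM in SMP replicates 1, 2 and 3 and at 247, 170.2 and 214 FPKM in Control replicates 1, 2 and 3, with no overlap. It was 2.69-fold higher (log2 difference 1.39, SE 0.28, limma adjusted p = 0.0379). STIP1, which passes clients from HSP70 to HSP90, was at 37.9, 36.7 and 35.7 FPKM in SMP and at 17.98, 12.1 and 12.002 FPKM in Control (log2 difference 1.35, adjusted p = 0.0173). Its SMP values were close together and none overlapped Control.

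FKBP4, the co-chaperone that competes with FKBP5 in the receptor complex and favours transport of the receptor to the nucleus, was at 154, 143 and 101.2 FPKM in SMP replicates 1, 2 and 3 and at 61.8, 63.1 and 58.3 FPKM in Control replicates 1, 2 and 3. It rose by 1.09 on the log2 scale (limma adjusted p = 0.0287), whereas the FKBP5 difference was -0.70 and did not pass. PPID, an immunophilin of the same complex, and PTGES3, the p23 co-chaperone, also rose, with log2 differences of 0.91 (adjusted p = 0.0353) and 0.68 (adjusted p = 0.0481). HSP90AA1, FKBP4, PPID and PTGES3 lost their calls without the expression filter (adjusted p 0.0530 to 0.0835). They also lost them with replicate number added to the fit (0.0612 to 0.135), and PTGES3 with median-ratio scaling as well. Without Control replicate 3, SMP replicate 1 or SMP replicate 2, no gene of this list kept its call, with adjusted p up to 0.0956 for STIP1, 0.143 for FKBP4, 0.160 for HSP90AA1, 0.164 for PPID and 0.180 for PTGES3.

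**Figure D4:**
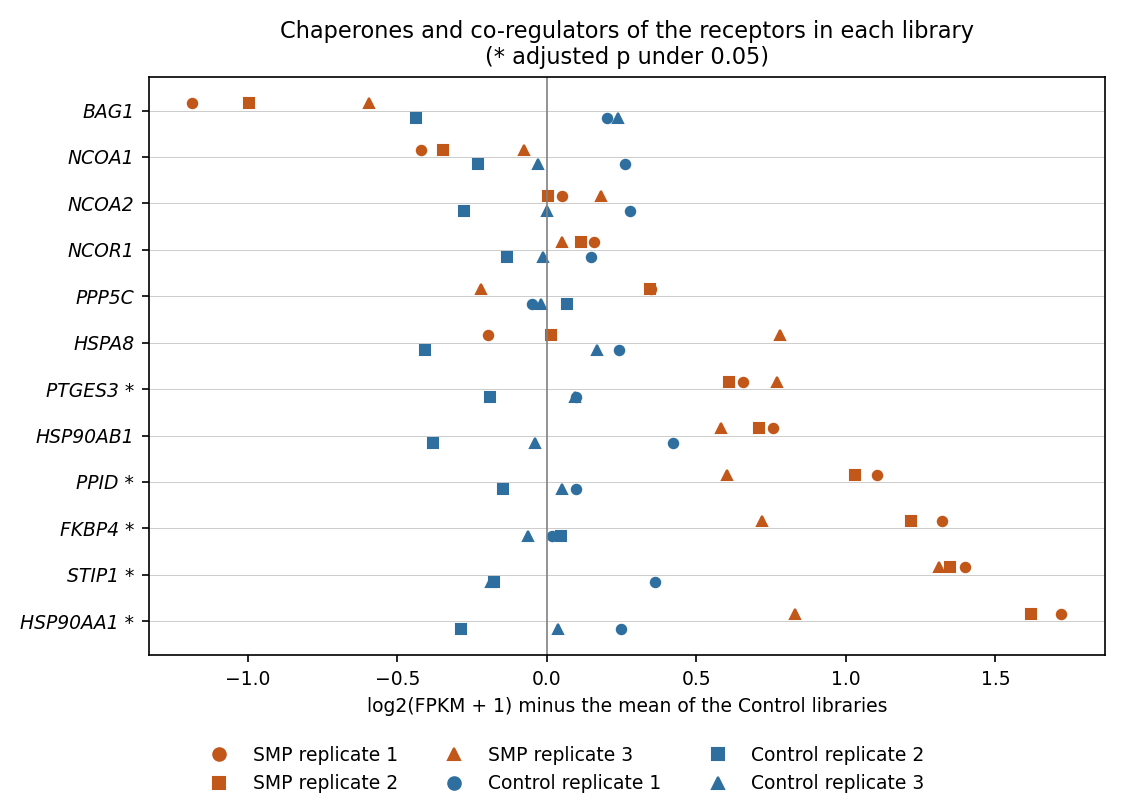
log2(FPKM + 1) of 12 chaperones and co-regulators of the corticosteroid receptors in each library, minus the mean of the Control libraries, sorted by the fitted difference; asterisks mark adjusted p under 0.05. STIP1, HSP90AA1, FKBP4, PPID and PTGES3 pass as higher in SMP, with log2 differences of 0.68 to 1.39.

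Around SGK1, 1 of 11 tested genes fell (9.09%, against 2.1% of all tested genes) and 0 rose (2 at an unadjusted p under 0.05 in limma, 1 by voom after adjustment). The one that fell was SGK2, a kinase related to SGK1, at 1.08, 0.717 and 0.666 FPKM in SMP replicates 1, 2 and 3 and at 4.99, 2.79 and 4.58 FPKM in Control replicates 1, 2 and 3. It was 5.03-fold lower in SMP (log2 difference -1.47, limma adjusted p = 0.0190), with separate groups, and kept its call only without Control replicate 2 or SMP replicate 3 among the fits leaving out 1 library (adjusted p 0.00797 to 0.104). NDRG1, a substrate of SGK1 singled out once its values were known, was at 52.7 to 96.0 FPKM in SMP and 27.0 to 41.6 FPKM in Control. It missed the threshold (log2 difference 1.19, limma adjusted p = 0.0581), and its transcript level does not measure the activity of SGK1.

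Among regulators of the sodium channel, 1 of 15 tested genes rose (6.67%, against 3.5% of all tested genes) and 0 fell, with 0 lower at an unadjusted p under 0.05. With voom 2 rose and 0 fell. NEDD4, a ubiquitin ligase that can bind the channel, was at 2.65, 2.91 and 2.44 FPKM in SMP replicates 1, 2 and 3 and at 1.43, 1.29 and 1.49 FPKM in Control replicates 1, 2 and 3, with no overlap. It rose by 0.61 on the log2 scale (limma adjusted p = 0.0463), and lost the call with quantile normalization and in each fit without 1 library, except that without SMP replicate 3 (adjusted p 0.0414 to 0.212). The call was also lost without the expression filter and with replicate number added to the fit. NEDD4L, the ligase that SGK1 phosphorylates and a gene singled out once its values were known, was at 3.38 to 3.68 FPKM in SMP and 2.51 to 3.10 FPKM in Control (log2 difference 0.27, adjusted p = 0.235). The channel-activating protease gene PRSS8, likewise singled out once its values were known, was at 196 to 212 FPKM in SMP and 183 to 224 FPKM in Control, far above the channel subunits.

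On the basolateral side, limma called 0 of 4 tested genes of the sodium pump and its FXYD partners, against 5.6% of all tested genes, and voom called 0, against 6.4%. At an unadjusted p under 0.05 limma counted 1 of the 4, against 25.8% of all tested genes. FXYD3 was at 1.92 to 3.45 FPKM in SMP and 4.37 to 5.82 FPKM in Control (log2 difference -0.72, adjusted p = 0.0848). ATP1B1, the beta subunit of the pump, was at 209 to 275 FPKM in SMP and 129 to 217 FPKM in Control (log2 difference 0.43, adjusted p = 0.288).

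**Figure D5:**
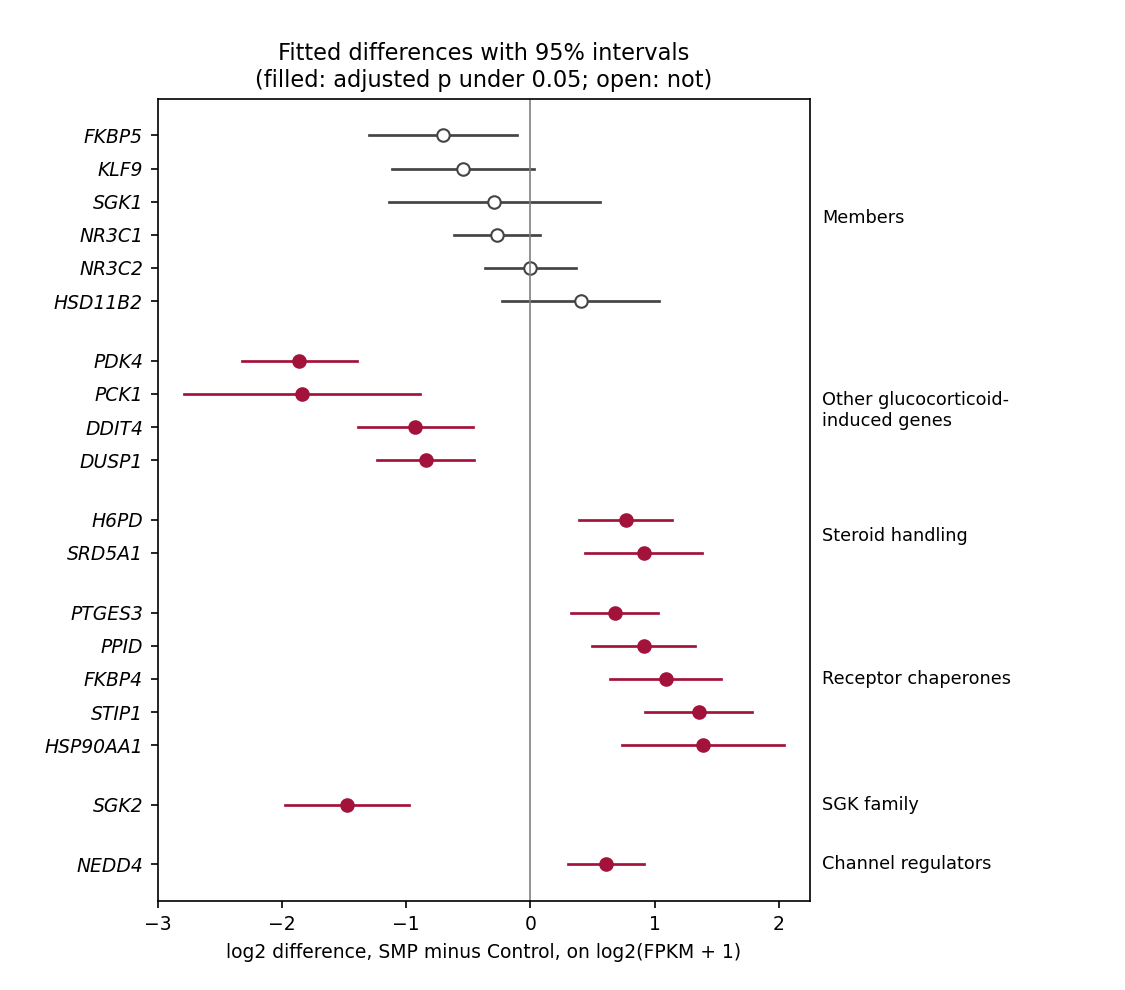
Fitted log2 differences, SMP minus Control, with 95% intervals for the 6 tested members and the 13 pathway genes past the threshold, grouped by role; filled symbols passed and open ones did not. The interval of FKBP5 (-1.30 to -0.10) lies below 0 before adjustment, and the intervals of the other members include 0.

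The genes whose profile over the 6 libraries was most like that of FKBP5, by the root mean square difference of centred log2 values, were GPCPD1 (0.03), CXCL10 (0.05) and PON2 (0.06). GPCPD1 was at 2.97 to 3.59 FPKM in SMP and 3.92 to 8.64 FPKM in Control, with Control replicate 2 again the lowest of Control. For KLF9 the nearest were MYLIP (0.10), MTCL1 (0.11) and ITGB5 (0.13). These are descriptions over the same 6 libraries, which differ in depth and in the marker levels given above.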

How the data were processed

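RNA-seq of 6 pig gut samples was analysed, with groups and replicate numbers from the labels. Per the labels' protocols, a NEBNext Ultra kit was used on total RNA. HISAT2 2.0.5, StringTie and DESeq2 1.16.1 are named with no role, per the submitters' processing notes, and so is mm10, a mouse build, although the identifiers are pig Ensembl ones; no coordinates are therefore given. How strand and multiply mapped reads were treated is not given in the sources used here, and overlapping genes or near-identical copies are uncertain for that reason. The authors deposited FPKM for 21911 genes, a unit read from the values: each is a whole number of reads divided by 1 length per gene and 1 total per library, and these reads were recovered for 21911 genes (tolerance 1e-05). A gene name table gave symbols for 14153 identifiers.

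Values were tested as log2(FPKM + 1), pseudocount 1, mean of at least 1 FPKM, with limma 3.58.1 in R 4.3.3 (treatment only, trended empirical Bayes, Benjamini-Hochberg at 0.05). The limma and recovery steps were tested on simulated data. The members and gene lists were chosen with earlier results of these data known. Named were all members, each list gene past the threshold, or else the 2 with the smallest p, and the 3 genes closest in profile to the 2 members with the smallest p. Genes outside this rule are said to have been singled out or named with their values known. Alternatives were other scalings, filters, pseudocounts and weights, a robust fit, voom on the recovered reads, a replicate block and libraries left out. Between replicates, chi-square per degree of freedom was 12.7 to 103, so none was the same library deposited again. Sequences of the members were not used here.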

Additional observations from a re-analysis of the deposited data

How the results depend on the processing

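The count of all changed genes was 642. It moved to 4369 with array weights, 258 with no filter, 236 with the replicate block and 3043 without both Control replicate 2 and SMP replicate 3, and ranged from 43 to 1065 without each single library. The count of changed members was 0. It moved to 4 with array weights and 3 without both libraries, and ranged from 0 to 1 without each single library. The count of changed pathway genes was 13 of 74 tested. It moved to 34 with array weights, 3 with no filter (of 81 tested), 4 with the replicate block and 25 without both libraries. Without each single library it ranged from 1 to 14. Of the 13 genes called in the main fit, only PDK4 and STIP1 kept their calls with no filter, and only PDK4, PCK1, STIP1 and SGK2 with the replicate block. Median-ratio scaling made 45.4% of the changed genes higher, against 62.5%, and put the median log2 difference over the table at 0.01. NR3C2, at 0.000714, changed sign with array weights (-0.0677), median-ratio scaling (-0.055), quantile normalization (-0.13), voom (-0.0148), pseudocounts of 0.1 (-0.00142) and 0.5 (-4.0e-05), and without both libraries (-0.147), and ranged from -0.088 to 0.0852 without each single library, with an adjusted p of at least 0.466 in each. The cause of these moves was not tested. Deviations of same-numbered libraries from their group means had correlations of -0.31, 0.32 and -0.04. Differently numbered libraries gave -0.307 to 0.377, so these values cannot show whether the numbers pair the samples. Depth limits the channel subunits SCNN1B and SCNN1G.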

Other observations

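The balance of the enzymes that regenerate and inactivate cortisol was computed per library after the values had been seen. The ratio of HSD11B1 to HSD11B2 was 0.708, 0.703 and 1.11 in SMP replicates 1, 2 and 3 and 1.699, 1.37 and 1.76 in Control replicates 1, 2 and 3, so the groups did not overlap. Its log2 difference was -0.96 and the 2-sided exact permutation test gave p = 0.1, the smallest that 3 against 3 libraries allow. The ratio of NR3C1 to NR3C2 was also separate between the groups, with a log2 difference of -0.31 and the same p of 0.1. These were the 2 ratios computed, and with Benjamini-Hochberg adjustment over both the p stays 0.1.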
